A study of Carassius auratus with 6 samples.

Results

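Transcripts of hemoglobins, myoglobin, other globins and the enzymes of heme synthesis were followed in the skin of golden-back crucian carp (Carassius auratus), a natural colour mutant whose body skin is partly golden and partly greenish grey. The 58 gene rows, of 83088 in the deposited table, were chosen by the start of their annotated product name (hemoglobin, myoglobin, cytoglobin, neuroglobin, 5-aminolevulinate synthase, ferrochelatase, band 3 anion exchange protein, uroporphyrinogen or porphobilinogen). This rule uses no measured value, but it was set with earlier results of these data known. They were 26 hemoglobin, 4 myoglobin, 5 cytoglobin and 4 neuroglobin rows, 13 rows of heme synthesis enzymes and 6 rows of band 3. The samples were 6 mRNA libraries of skin from female fish, 3 of golden and 3 of greenish grey skin, without any treatment or engineered genotype. The fish of the wider study were 8 months old, came from paddy fields and were kept in tanks, and its small RNA libraries took both skin colours from each fish. For the mRNA libraries, neither whether their fish were of that age, nor pooling of fish, nor whether libraries of the same replicate number came from the same fish is given in the sources used here.

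Hemoglobin carries oxygen in red blood cells as a tetramer of alpha and beta chains, each of which holds a heme. Fish red blood cells keep their nucleus, and a piece of skin contains blood in its vessels, so globin mRNA is found in skin samples. Heme is built in a chain of enzyme steps. The first is made by 5-aminolevulinate synthase (ALAS), which has an erythroid form used by developing red cells and a nonspecific form used by all cells. Porphobilinogen deaminase, uroporphyrinogen-III synthase and uroporphyrinogen decarboxylase follow in the middle of the chain, and ferrochelatase inserts the iron at its end. Band 3 is the anion exchanger of the red cell membrane. Myoglobin binds oxygen inside oxidative muscle fibres, while cytoglobin is found in fibroblasts and many other cells and neuroglobin in nerve cells.

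Total counts ranged from 51493103 to 67595616 per library and did not separate the colours. Libraries with the same replicate number tended to deviate together across both colours, less so for number 2. The correlations of their deviations from the group means were 0.656, 0.258 and 0.682 for numbers 1, 2 and 3 over 26421 genes. Skeletal muscle markers took 3.01% to 12.3% of the counts in golden and 1.36% to 8.02% in greenish grey libraries, and epidermis markers, mainly keratins, took 0.429% to 2.72% and 0.849% to 2.35%. In bulk tissue, fewer cells of a type and less RNA per cell cannot be told apart. Values below are FPKM (fragments scaled by gene length and library size), the authors' unit, unless counts are named.

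Hemoglobin transcripts differed far more between single libraries than between the skin colours. The 26 rows together held 1.68%, 0.929% and 0.181% of the counts in golden libraries 1, 2 and 3 and 2.19%, 0.205% and 0.104% in greenish grey libraries 1, 2 and 3. The 2 colours overlapped fully, at 0.931% ± 0.751 for golden and 0.831% ± 1.17 for greenish grey skin (mean ± SD, n = 3 each), and the highest library exceeded the lowest 21.0-fold. The ratio of the means, 1.12, was set by single libraries, since it was 6.03 without greenish grey library 1 and 0.667 without golden library 1.

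Most of the hemoglobin came from a single pair of neighbouring genes. The hemoglobin subunit alpha gene LOC113082666 (assembly ASM336829v1, chromosome 5, 24509253 to 24510093, plus strand) and the hemoglobin subunit beta gene LOC113082649 (chromosome 5, 24507671 to 24508508, minus strand) lie head to head with 744 bases between them. Per length, this pair held 91.6% to 93.9% of the summed hemoglobin FPKM in every library. The alpha gene had 14359, 8094 and 1488 FPKM in golden libraries 1, 2 and 3 and 17631, 1668 and 832 FPKM in greenish grey libraries 1, 2 and 3. The beta gene had 10016, 5653 and 1153 FPKM in golden and 13744, 1335 and 681 FPKM in greenish grey libraries in the same order. Both genes were thus high in the 2 libraries numbered 1 and in golden library 2, and low in the other 3.

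An alpha and a beta gene also lie head to head on chromosome 3, with lower levels. The alpha gene LOC113049502 (chromosome 3, 18743097 to 18743992) had 1090, 423 and 84.8 FPKM in golden and 1399, 92.4 and 45.8 FPKM in greenish grey libraries 1, 2 and 3. The beta-like gene LOC113049480 (chromosome 3, 18730768 to 18741925) had 936, 384 and 86.8 FPKM in golden and 1292, 95.7 and 55.7 FPKM in greenish grey libraries. The alpha gene of chromosome 5 thus stood 12.6-fold to 19.1-fold above that of chromosome 3, and the beta gene 10.6-fold to 14.7-fold above its counterpart, so the division between the loci was far steadier than the amount. These copies may share reads, and the rule by which shared reads were counted is not given in the sources used here.

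**Figure D1:**
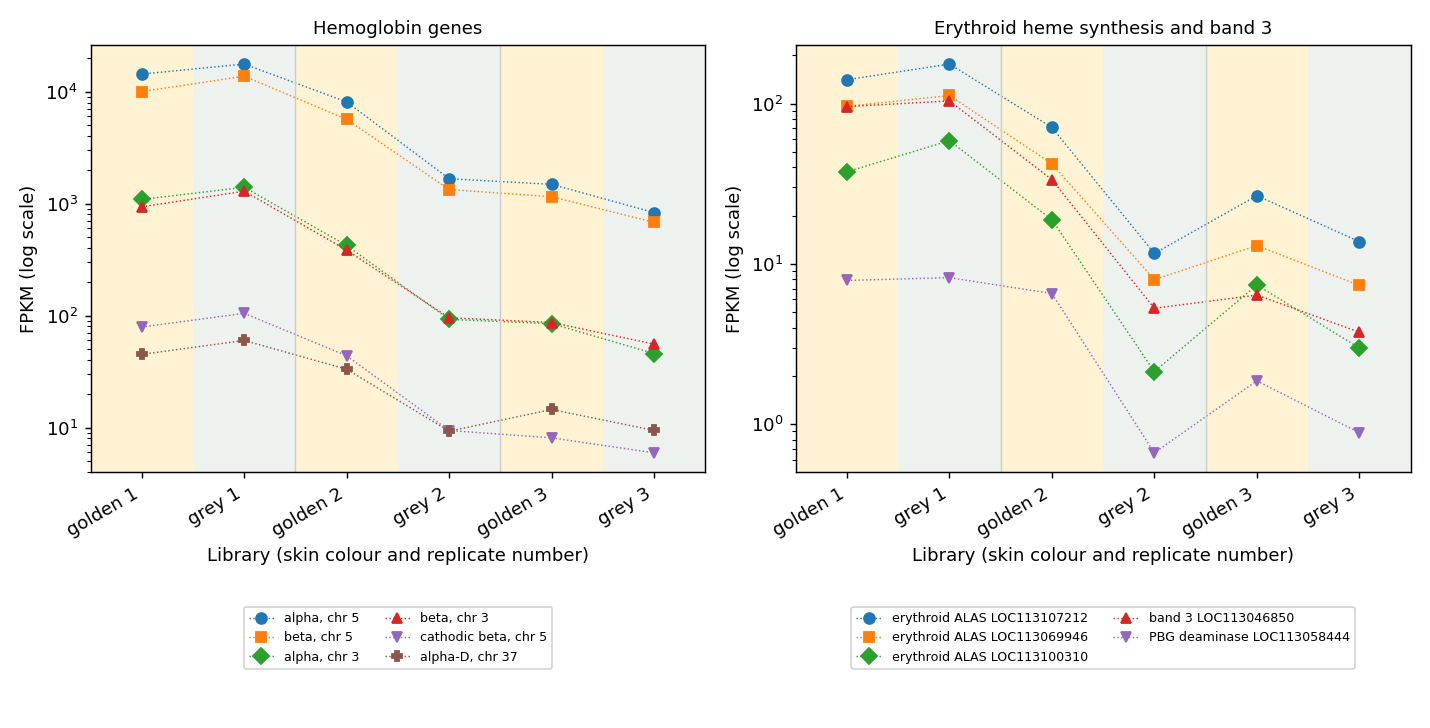
FPKM on a log axis in each library, with golden and greenish grey libraries of the same replicate number side by side, for 6 hemoglobin genes (left) and for 5 other genes named for red cells or varying with them (right). Each symbol is 1 library and the dotted lines only guide the eye. The 3 libraries golden 1, grey 1 and golden 2 lie above the other 3 for every gene drawn.

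The remaining hemoglobin rows were minor. The cathodic beta gene LOC113082658 (chromosome 5, 24501918 to 24502720), whose name refers to a hemoglobin fraction separated by its charge, had 79.1, 43.8 and 8.10 FPKM in golden and 105, 9.41 and 5.95 FPKM in greenish grey libraries 1, 2 and 3. The alpha-D-like gene LOC113056258 (chromosome 37, 12852848 to 12854062) had 45.1, 33.2 and 14.5 FPKM in golden and 60.0, 9.29 and 9.43 FPKM in greenish grey libraries. The range of alpha-D over the libraries, 6.46-fold, was narrower than the 21.2-fold range of the main alpha gene, and its level rose from 0.314% of the main alpha gene in golden library 1 to 1.13% in greenish grey library 3, where hemoglobin was lowest. Among the libraries of each colour, that percentage was higher where hemoglobin was lower.

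A beta-2-like gene (LOC113082685, chromosome 5) and a pseudogene of cathodic beta (LOC113049508, chromosome 3) reached 6.30 and 2.21 FPKM at most. The pseudogene lies on the same strand within the beta-like gene LOC113049480, with 2687 shared bases, so its counts cannot be separated from that gene. All 5 rows of embryonic alpha hemoglobin, the chains of early development, stayed under the expression minimum and summed to between 0 and 128 counts per library. The 3 hemoglobin rows of chromosome 12 and 3 of the 4 rows of chromosome 37 also stayed under it. Of the 26 hemoglobin rows, 5 had no count in any library, and 8 averaged 1 FPKM or more and entered the test.

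Transcripts of the erythroid ALAS genes were high in the same 3 libraries as hemoglobin, while the order among the low libraries differed from that of the main alpha gene. The highest of the 3 erythroid ALAS genes, LOC113107212 (chromosome 8, 9274251 to 9281329), had 141, 71.1 and 26.7 FPKM in golden and 177, 11.6 and 13.8 FPKM in greenish grey libraries 1, 2 and 3. LOC113069946 (unplaced, 2133355 to 2139660) had 96.2, 42.2 and 13.0 FPKM in golden and 112, 7.97 and 7.34 FPKM in greenish grey libraries. LOC113100310 (unplaced, 263017 to 269499) had 37.6, 18.9 and 7.38 FPKM in golden and 58.8, 2.13 and 2.99 FPKM in greenish grey libraries. Per 1000 FPKM of hemoglobin, the 3 genes summed to between 6.76 and 16.6 FPKM, a 2.46-fold range, while their sum itself ranged 16.0-fold.

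Of the 6 band 3 genes, a single one followed the red cell transcripts. This was LOC113046850 (chromosome 28, 13496238 to 13507730), with 95.9, 33.6 and 6.39 FPKM in golden and 104, 5.28 and 3.75 FPKM in greenish grey libraries 1, 2 and 3. LOC113111905 on chromosome 12 and LOC113056306 on chromosome 37 varied only 2.39-fold and 2.56-fold, between 1.17 and 4.93 FPKM, and the other 3 rows stayed under 0.35 FPKM. LOC113056306 was the only 1 of the 30 tested rows whose colours did not overlap, with 4.23, 3.33 and 5.27 CPM (library-size-scaled counts, here also scaled for composition) in golden and 6.21, 7.32 and 5.42 CPM in greenish grey libraries 1, 2 and 3. Its golden values were thus all lower, the nearest by little, and in FPKM the colours did overlap (2.25 in golden library 3 against 2.10 in greenish grey library 1). Of all tested genes, 10.1% had colours without overlap in scaled counts.

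Porphobilinogen deaminase was divided in the same manner between its copies. LOC113058444 (chromosome 40, 7807279 to 7811688) had 7.88, 6.53 and 1.86 FPKM in golden and 8.21, 0.661 and 0.883 FPKM in greenish grey libraries 1, 2 and 3, high in the same 3 libraries as hemoglobin. The copy hmbs (chromosome 15) varied 2.07-fold, between 3.16 and 6.55 FPKM. The copy LOC113049457 (chromosome 30) went the other way, with its lowest values, 2.59 and 3.87 FPKM, in the libraries numbered 1 and its highest, 11.3 FPKM, in golden library 3.

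In all, 13 of the 30 tested members were higher in golden library 1, greenish grey library 1 and golden library 2 than in every other library. They were the 8 hemoglobins, the 3 erythroid ALAS genes, the band 3 gene LOC113046850 and the deaminase LOC113058444. This profile was described after the values were seen, and 7.56% of all tested genes had it. Markers of red cells outside the chosen rows had it in 20 of 28 tested genes, among them hemogen, ankyrin-1, dematin and most Rh ammonium transporters. For example, hemogen (hemgn), a nuclear protein of erythroid cells, had 59.9, 49.0 and 8.50 FPKM in golden and 69.3, 7.45 and 4.76 FPKM in greenish grey libraries 1, 2 and 3. Some of the markers with the profile, such as the dematin-like LOC113109790 and the spectrin beta LOC113060471, stayed under 1 FPKM in every library outside it. The members LOC113082685 and LOC113049508 did as well. Such rows met the expression minimum only through the libraries that define the profile, so their entry into the test depended on it. No tested protein 4.1-like or tropomodulin-1 gene had this profile, nor did the Rh ammonium transporter LOC113121205. The whole list had 49 rows and was drawn by the start of product names. It therefore also held aquaporin-10-like, aquaporin-11-like and aquaporin-12-like rows, which are not red cell markers and were not among the tested genes. The list took 0.0806% to 0.225% of the counts in golden and 0.0802% to 0.104% in greenish grey libraries, and 1 of its rows had at most 3 counts in every library. This summed share was also higher in golden libraries 1 and 2 and greenish grey library 1, at 0.130%, 0.225% and 0.104%, than in the others. Those had 0.0802% to 0.0807%. The share was highest in golden library 2, whereas hemoglobin was highest in greenish grey library 1. The most abundant row of the list was the protein 4.1-like gene LOC113045181, a membrane skeleton protein also made in other cells. It had 161, 439 and 175 FPKM in golden and 87.0, 160 and 178 FPKM in greenish grey libraries. Of the 28 tested genes, 26 had a positive and 2 a negative log2 fold change, beside 53.2% positive in all genes, with a median of 0.68 beside 0.031. The protein 4.1-like gene LOC113077933 was the only 1 of them more than 2-fold different at an unadjusted p under 0.05 (higher in golden skin), where 2.77% of all genes were. In a fit with the replicate number as a block, 3 were, each higher, where 5.05% of all genes were. The part of blood content in the hemoglobin values was not tested.

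The steps of heme synthesis that all cells use did not have this profile. The nonspecific synthase alas1 (linkage group LG36F, 1877248 to 1882671) had 161, 38.2 and 100.4 FPKM in golden and 163, 44.8 and 98.1 FPKM in greenish grey libraries 1, 2 and 3. Golden and greenish grey values with the same number were thus close, at FPKM ratios of 0.988, 0.852 and 1.02, while the numbers differed up to 4.27-fold. The second nonspecific gene, LOC113054922 (chromosome 36), had 17.5, 10.96 and 26.9 FPKM in golden and 24.1, 18.3 and 17.7 FPKM in greenish grey libraries. Per length, nonspecific ALAS was the more abundant form in the 3 libraries low in hemoglobin, with sums of 63.2, 116 and 127 FPKM in greenish grey libraries 2 and 3 and golden library 3 against 21.7, 24.1 and 47.0 FPKM of the erythroid form. It was the less abundant form in the other 3.

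The later enzymes differed in how much they varied between libraries. Ferrochelatase (fech, chromosome 21, 25305026 to 25319228) had 16.2, 11.2 and 13.1 FPKM in golden and 18.4, 10.96 and 11.5 FPKM in greenish grey libraries, a 1.68-fold range. Uroporphyrinogen decarboxylase had 2 copies, LOC113045562 (chromosome 27) and LOC113117503 (chromosome 2), with ranges of 1.40-fold and 1.59-fold around 5 FPKM. Uroporphyrinogen-III synthase (uros, chromosome 12) had 2.76, 1.62 and 1.80 FPKM in golden and 4.83, 1.77 and 1.12 FPKM in greenish grey libraries, a 4.32-fold range, with its highest values in the libraries numbered 1.

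**Figure D2:**
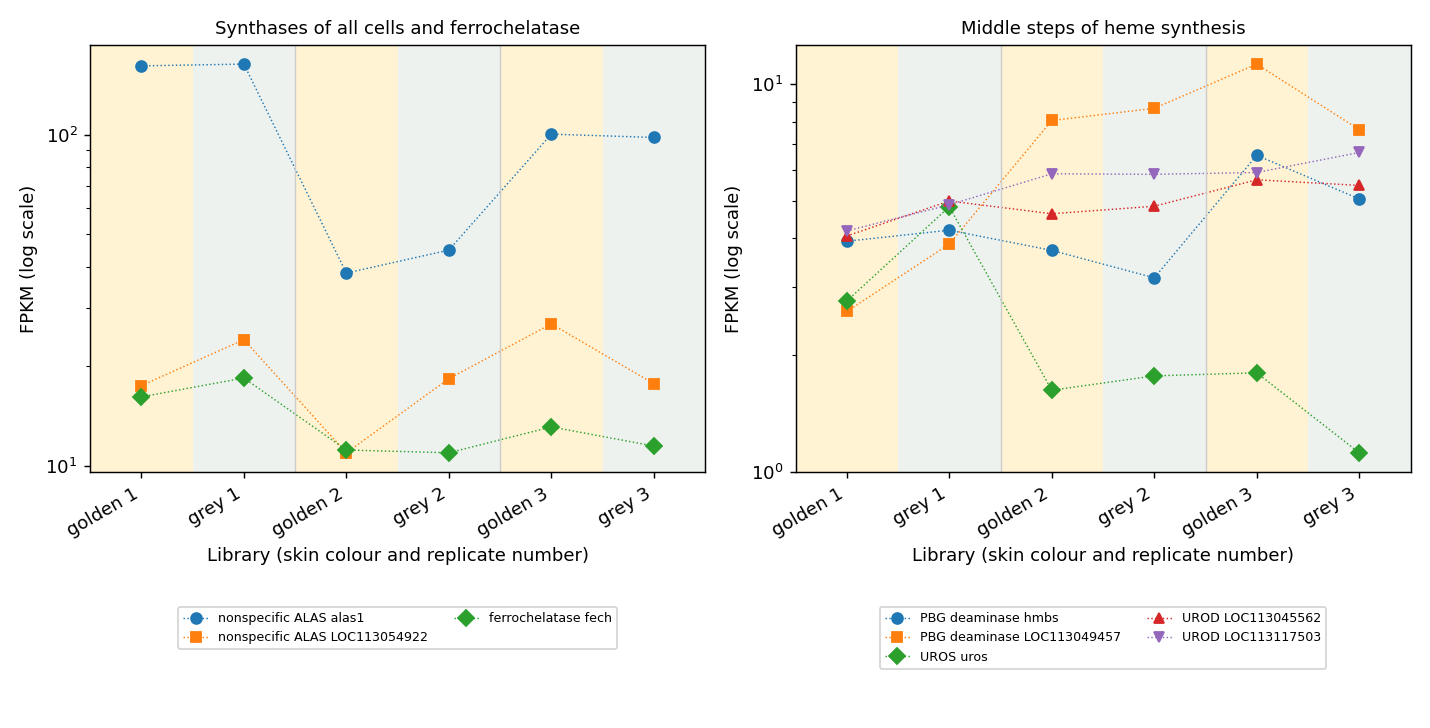
FPKM on a log axis in each library for the nonspecific ALAS genes and ferrochelatase (left) and for porphobilinogen deaminase (PBG deaminase), uroporphyrinogen-III synthase (UROS) and uroporphyrinogen decarboxylase (UROD) (right). Each symbol is 1 library. The alas1 values of the same replicate number nearly coincide between the colours, from 163 FPKM in grey 1 to 38.2 FPKM in golden 2.

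To ask whether any of these genes differ between the skin colours, the counts of all 26421 genes averaging 1 FPKM or more were compared with edgeR's quasi-likelihood test. Of the 30 tested members, 0 had an adjusted p under 0.05, and 0 passed the study's own threshold of more than 2-fold at an unadjusted p under 0.05. Among all tested genes these rules called 0% and 2.77%. No member had an unadjusted p under 0.05, which 4.4% of all genes had. By the study's threshold, 0 members were also called with DESeq2, without composition scaling and without the expression filter, where 3.87%, 3.41% and 3.19% of all genes were called. DESeq2 gave no p-value for the cytoglobin-1-like gene LOC113067865 and so could not call it. Limma called 1 on log2(FPKM + 1), the myoglobin gene LOC113074004. With a pseudocount of 0.1 it called 2, that gene and the cytoglobin-1-like gene LOC113067568. All were lower in golden skin, beside 1.99% and 3.19% of all genes. In edgeR, 20 members had a positive and 10 a negative log2 fold change (golden over greenish grey), beside 53.2% positive in all genes, with a median of 0.15 beside 0.031 over all genes. The hemoglobins had log2 fold changes of -0.23 to 0.67 with standard errors of 0.96 to 1.79, so differences of several fold in either direction lay within the spread between libraries. The main alpha gene had a log2 fold change of 0.41 (SE 1.44) and the main beta gene 0.25 (SE 1.41).

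Because libraries of the same number tended to deviate together, though less so for number 2, the fit was repeated with the number as a block. Then 3 members passed the study's threshold, each lower in golden skin, where 5.05% of all genes passed it in either direction and 2.63% as lower. They were the myoglobin gene LOC113074004 and the cytoglobin-1-like genes LOC113067568 and LOC113067865. LOC113067865 averaged 0.349 FPKM in golden and 1.72 FPKM in greenish grey skin. It met the expression minimum only through greenish grey skin, so its entry into the test depended on the difference called. None of the members and 0.00378% of all genes had an adjusted p under 0.05 (lowest edgeR adjusted p of a member 0.259). With the block, all 8 hemoglobins had a positive log2 fold change (median 0.95), and 0 of them had an unadjusted p under 0.05, beside 13% of all genes. With the block, limma called 3 members, beside 3.16% of all genes, of which 2 were the same as in edgeR and LOC113083552 took the place of LOC113067865. The numbered pairs went in different directions, as the main alpha gene had FPKM ratios of golden to greenish grey of 0.814, 4.85 and 1.79 for numbers 1, 2 and 3. In counts scaled for composition, the log2 ratio of pair 1 was close to 0, at -0.016. Without greenish grey library 1, 9 members passed the study's threshold, each of them higher in golden skin, beside 3.27% of all genes. They were the alpha genes LOC113049502 and LOC113056258, the cathodic beta rows LOC113082658 and LOC113049508, the 3 erythroid ALAS genes, the band 3 gene LOC113046850 and the deaminase LOC113058444. The edgeR adjusted p was 0.995 in each case. LOC113049508 averaged 1.40 FPKM in golden and 0.946 FPKM in greenish grey skin, so it met the expression minimum only through golden skin. Its counts also cannot be separated from those of LOC113049480. Leaving out golden library 2, greenish grey library 2 or greenish grey library 3 called 0 members, beside 2.17%, 1.87% and 3.22% of all genes.

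**Figure D3:**
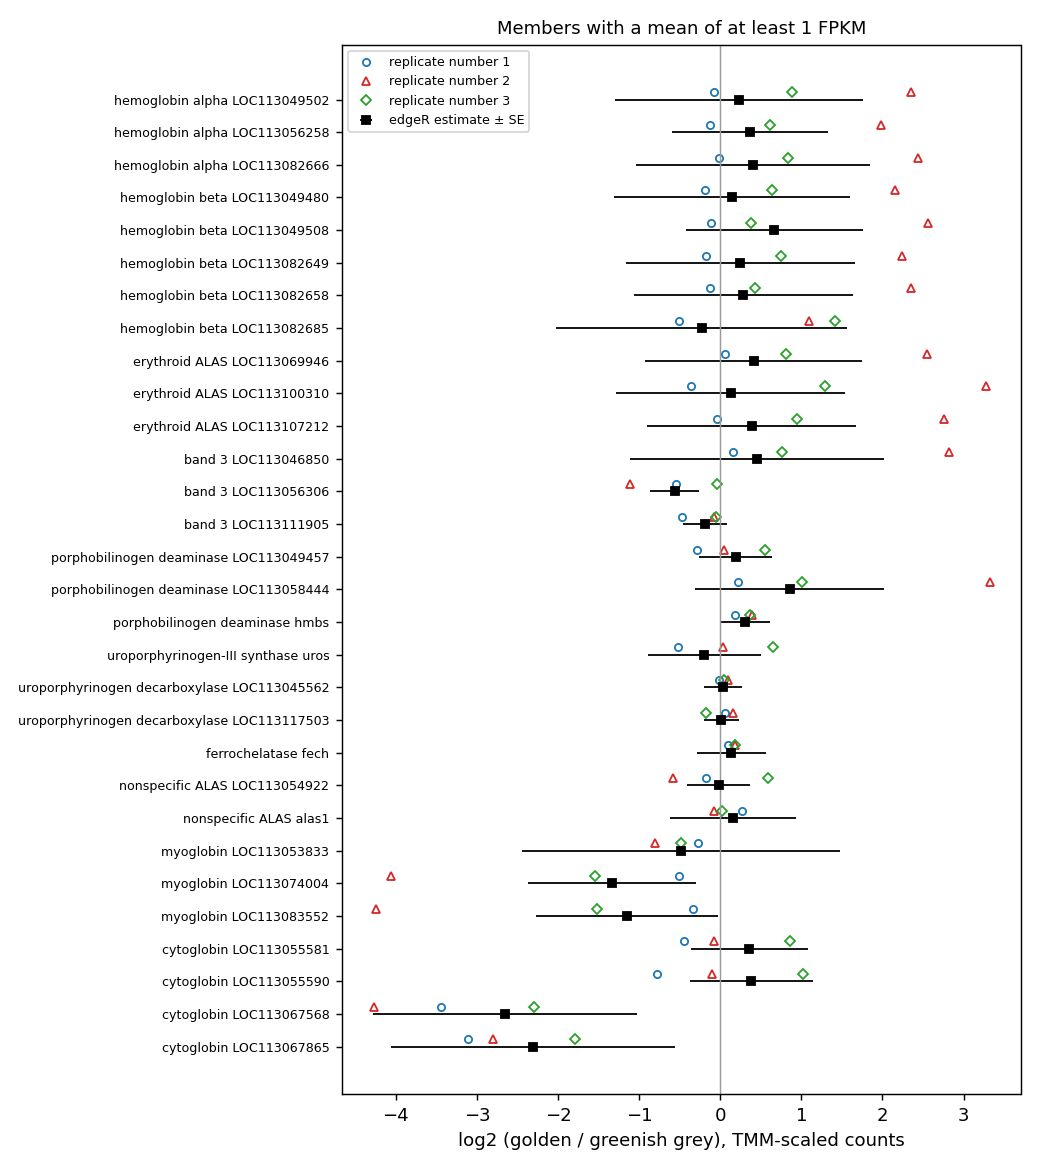
Log2 ratio of golden to greenish grey skin for the 30 tested members, grouped by protein. Black squares with bars are the edgeR estimate ± SE over 3 against 3 libraries, and open symbols are the ratios of CPM within the pairs numbered 1, 2 and 3, after adding 0.1 to each value. Most of the red cell genes are near 0 in pair 1 and highest in pair 2. The myoglobins, 2 of the cytoglobins and 2 of the band 3 genes are below 0 in every pair.

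The 3 tested myoglobins had lower values in golden than in greenish grey skin in each numbered pair, as 20% of all genes did. In the edgeR fit without the block, the difference did not exceed the spread between libraries. The gene LOC113074004 (unplaced, 233374 to 237292) had 431, 42.2 and 95.5 FPKM in golden and 745, 782 and 277 FPKM in greenish grey libraries 1, 2 and 3. Golden skin averaged 190 ± 211 FPKM and greenish grey skin 601 ± 282 FPKM (SD, n = 3 each). The colours overlapped, since golden library 1 exceeded greenish grey library 3. The log2 fold change was -1.34 (SE 1.03, edgeR adjusted p = 0.9998), and with the replicate block it was -1.97 (SE 0.74, unadjusted p = 0.0401, edgeR adjusted p = 0.373). Without golden library 1 it was -3.22 (unadjusted p = 0.00482, edgeR adjusted p = 0.867), where 4.22% of all genes were past the threshold. Limma without the block, on log2(FPKM + 1), called this gene at -2.16 (unadjusted p = 0.0432, limma adjusted p = 0.999), beside 1.99% of all genes. With a pseudocount of 0.1 it was called as well.

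The row annotated as myoglobin 1, LOC113083552 (a pseudogene in RefSeq, unplaced, 620 to 4194), had 838, 57.1 and 156 FPKM in golden and 1284, 1211 and 447 FPKM in greenish grey libraries. Its level was 1.35-fold to 1.94-fold that of LOC113074004 in every library, and the division of reads between these copies is uncertain. Its log2 fold change was -1.15 (SE 1.12) without and -1.96 (SE 0.82, unadjusted p = 0.0566) with the block, and -3.31 without golden library 1. The myoglobin-like genes of chromosome 1 were low. LOC113053833 had 3.65, 2.34 and 0 FPKM in golden and 5.38, 4.59 and 0.0161 FPKM in greenish grey libraries, and LOC113052789 had no count.

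Markers of slow and cardiac muscle were, in sum, also lower in golden skin, although their genes were not uniform. Their 71 rows took 0.694%, 0.0396% and 0.193% of the counts in golden and 1.34%, 2.41% and 0.871% in greenish grey libraries 1, 2 and 3, lower in golden skin in each pair and, within golden skin, in the same order as myoglobin. A slow skeletal troponin I-like gene (LOC113118768, chromosome 18) had 8.13, 1.30 and 0.142 FPKM in golden and 295, 247 and 11.2 FPKM in greenish grey libraries. The myosin-7-like gene LOC113116625 (chromosome 2) differed from it, with 121, 1.23 and 20.7 FPKM in golden and 3.48, 12.9 and 17.9 FPKM in greenish grey libraries. This gene was singled out after its values were seen. Of the slow and cardiac list, 5 of the 71 rows had at most 3 counts in every library, and 4 of the 44 tested genes passed the study's threshold, each lower in golden skin, where 2.77% of all genes passed it, and 0 of them at an adjusted p under 0.05. Of these 44 genes, 18 had a positive and 26 a negative log2 fold change, with a median of -0.66. With the block, 19 passed the threshold, each lower, where 2.63% of all genes did, and again 0 had an adjusted p under 0.05. Skeletal muscle markers, mostly of fast fibres, took 12.3%, 7.28% and 3.01% of the counts in golden and 8.02%, 1.36% and 3.06% in greenish grey libraries, higher in golden skin in pairs 1 and 2 and close in pair 3. Of their 71 tested genes, 7 passed the threshold as higher and 1 as lower in golden skin, where 2.77% of all genes passed it in either direction. With the block, 23 passed it as higher and 2 as lower, where 5.05% of all genes passed it in either direction. In both fits, 0 of these skeletal muscle genes had an adjusted p under 0.05. The part of the muscle fibres present in each piece of skin was not tested.

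**Figure D4:**
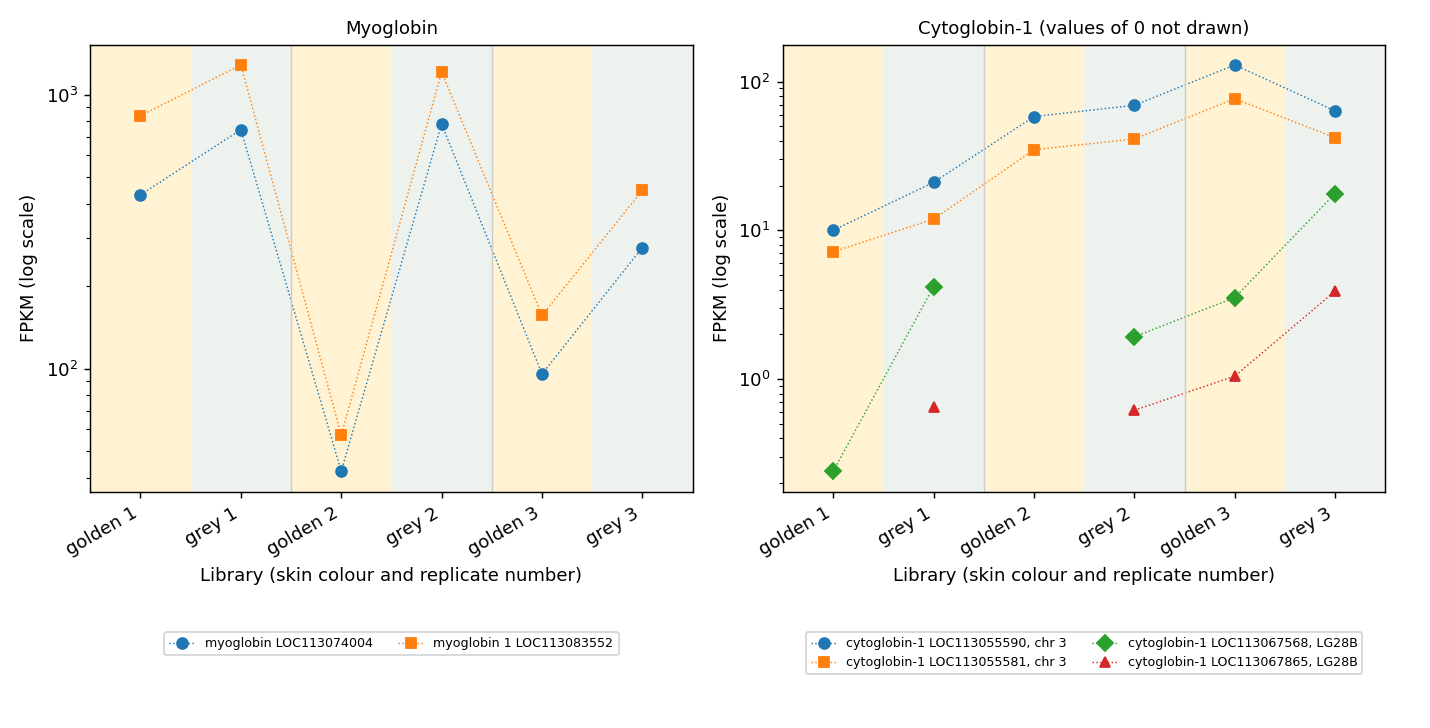
FPKM on a log axis in each library for both abundant myoglobin rows (left) and for 4 cytoglobin-1-like genes (right). Each symbol is 1 library, and values of 0 are left out. Within each replicate number, the golden library is below the grey library for myoglobin and for both LG28B cytoglobins, whose golden value was 0 where no symbol is drawn.

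The cytoglobins fell into pairs of copies with different profiles. The abundant copies lie on chromosome 3. LOC113055590 (15986829 to 15998774) had 10.01, 58.2 and 129 FPKM in golden and 21.0, 69.3 and 63.5 FPKM in greenish grey libraries 1, 2 and 3, and LOC113055581 (16286308 to 16305357) had 7.18, 34.9 and 76.8 FPKM in golden and 11.9, 41.1 and 42.0 FPKM in greenish grey libraries. Both were lowest in the libraries numbered 1, where hemoglobin was highest, and highest in golden library 3. Their ratio to each other stayed between 1.39 and 1.77. Their log2 fold changes of 0.38 (SE 0.76) and 0.36 (SE 0.72) were within the spread between libraries and turned negative in limma.

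The other pair lies on linkage group LG28B. LOC113067568 (6332781 to 6334034, annotated as a pseudogene) had 0.241, 0 and 3.53 FPKM in golden and 4.19, 1.93 and 17.7 FPKM in greenish grey libraries, which corresponds to 14, 0 and 251 against 228, 129 and 1218 counts. LOC113067865 (5749799 to 5758277) had 0, 0 and 75 counts in golden and 36, 42 and 269 counts in greenish grey libraries. Golden values were lower in each numbered pair for both, as in 20% of all genes. Golden library 3 exceeded greenish grey library 2, so the colours overlapped. The log2 fold changes were -2.66 (SE 1.63) and -2.31 (SE 1.75) without the block and -3.64 (SE 0.81, unadjusted p = 0.00488, edgeR adjusted p = 0.259) and -3.74 (SE 1.13, unadjusted p = 0.0181, edgeR adjusted p = 0.321) with it. Without golden library 3, both passed the study's threshold, beside 5.38% of all genes, with log2 fold changes of -5.50 and -9.57 (edgeR adjusted p = 0.649 for each). The last value rests on golden libraries without a count and is no measure of size. LOC113067865 also met the expression minimum only through greenish grey skin.

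The whole of LOC113067865 lies opposite the autophagy protease gene LOC113067858 (ATG4D-like), and the use of strand in counting is not given. That gene had 5.34, 6.20 and 6.73 FPKM in golden and 13.9, 9.71 and 6.48 FPKM in greenish grey libraries, an order different from that of the cytoglobin. The fifth cytoglobin, cygb on chromosome 31, had no count in any library. Neuroglobin was close to absent at this depth. Its 4 rows summed to between 10 and 37 counts per library, 2 of them had no count, and LOC113117747 on chromosome 17 reached 0.658 FPKM at most. This row overlaps the signal recognition particle gene srp14 by 197 bases on the opposite strand.

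Genes that make, move or break down heme outside the chosen rows were examined as a list. Of its 46 tested genes, 0 had an edgeR adjusted p under 0.05 and 1 passed the study's threshold as lower in golden skin, beside the 2.77% of all genes that passed it. The median log2 fold change was 0.18, beside 0.031 over all genes. The 1 gene was the heme oxygenase-like gene LOC113046688 (chromosome 28), which opens the heme ring. It had 1.43, 6.93 and 8.56 FPKM in golden and 9.81, 21.5 and 19.8 FPKM in greenish grey libraries 1, 2 and 3. All its golden values were thus lower than all its greenish grey values. In scaled counts, 4 of the 46 genes had colours without overlap, all lower in golden skin, beside 10.1% of all tested genes in either direction. For LOC113046688, named above, the fit gave the following. Its log2 fold change was -1.54 (SE 0.55, edgeR adjusted p = 0.9998, and 0.211 with the block). The most abundant gene of the list was another heme oxygenase-like gene (LOC113095140, unplaced), with 22.9, 137 and 107 FPKM in golden and 100.2, 494 and 241 FPKM in greenish grey libraries. It was lower in golden skin in each pair, as 20% of all genes were. Its log2 fold change was -1.55 (SE 0.72, edgeR adjusted p = 0.9998, and 0.194 with the block). With the block, 3 genes of the list passed the study's threshold, each lower in golden skin, beside 5.05% of all genes.

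Other enzymes of heme synthesis in that list had overlapping values in the colours. Aminolevulinic acid dehydratase (alad, chromosome 5), the second step, had 1.46, 2.77 and 4.67 FPKM in golden and 2.40, 4.095 and 3.53 FPKM in greenish grey libraries. The coproporphyrinogen-III oxidase-like gene LOC113107972 (chromosome 8) had 9.54, 11.1 and 17.8 FPKM in golden and 11.3, 11.5 and 19.3 FPKM in greenish grey libraries, a log2 fold change of -0.0072 (SE 0.28). Its other copy, LOC113069884 (unplaced), had 2.67, 4.49 and 7.02 FPKM in golden and 4.47, 8.21 and 8.94 FPKM in greenish grey libraries. This copy was lower in golden skin in each pair, as 20% of all genes were. Its log2 fold change was -0.50 (SE 0.32, edgeR adjusted p = 0.9998, and 0.367 with the block). Of 30 tested genes for iron storage and plasma carriers, 0 passed the study's threshold, where 2.77% of all genes did. Their median log2 fold change was 0.20, beside 0.031 over all genes. With the block, again 0 of these genes passed it, where 5.05% of all genes did, and 5 had an unadjusted edgeR p under 0.05, beside 13% of all genes. The most abundant was ferritin heavy subunit (LOC113051955, chromosome 32), the iron store of cells, with 1311, 1149 and 1890 FPKM in golden and 1523, 1337 and 2471 FPKM in greenish grey libraries. Its values also overlapped between the colours.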

How the data were processed

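Messenger RNA of skin was sequenced in 6 libraries, 3 of golden and 3 of greenish grey skin, and groups and replicate numbers come from the titles. The deposited table holds raw counts and FPKM values per gene row, both made by the authors, with 0.0001 FPKM written where the count was 0, which was set to 0 here. The aligner, the counter, the treatment of reads matching several copies and the use of strand are not given in the sources used here. All 58 rows matched the RefSeq gene table of ASM336829v1 (54 by gene ID, 4 by symbol) with the same start. A row was chosen when its cleaned product name began with a listed name. The members and lists were chosen with earlier results of these data known.

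Counts of the 26421 genes averaging 1 FPKM or more were compared with edgeR 4.0.16 (two-sided quasi-likelihood test in R 4.3.3, with TMM scaling over sizes that count every row), with Benjamini-Hochberg adjustment over all of them. The SE was taken from the log2 fold change and the F statistic. DESeq2 1.42.0, limma 3.58.1, no TMM, no filter, the replicate block and leaving out each library were alternatives, and limma with the block was added after the data were seen. Same-numbered libraries deviated together (0.656, 0.258 and 0.682), while the highest correlation of unlike numbers was 0.0644. Because deviations were taken from the colour means, positive values for like numbers push those for unlike numbers down. The latter are thus no separate evidence, and the pairing rests on the shared numbers and the like-number values. Values of every library are given for rows with at least 10 FPKM in a colour or passing the study's threshold of 2-fold and unadjusted p under 0.05, and for the most abundant row of most classes. For embryonic alpha hemoglobin, porphobilinogen deaminase, uroporphyrinogen decarboxylase and neuroglobin, the most abundant row has only sums, ranges or some values given. Rows named from the lists were the most abundant or past the threshold, apart from those added later. No row of the skeletal muscle and epidermis lists was named. The leukocyte, thrombocyte and endothelium lists were computed but are not described here. Values of lower rows, hemgn, alad, LOC113107972, LOC113069884, LOC113116625 and LOC113067858 were added after they were seen. Nothing says that libraries came from separate fish, so p-values measure the spread between these libraries only. Planned promoter motifs were not analysed here.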

Additional observations from a re-analysis of the deposited data

How the results depend on the processing

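No member had an adjusted p under 0.05 in any of the fits, the lowest being 0.0513 for LOC113067568 in limma with the block, a fit added after the data were seen. The number past 2-fold at an unadjusted p under 0.05 was 0 in the main edgeR fit, with DESeq2, without TMM and without a filter, 3 with the replicate block, 1 in limma on log2(FPKM + 1), 2 with a pseudocount of 0.1 and 3 in limma with the block, and went from 0 to 9 when single libraries were left out. For LOC113067865, DESeq2 gave no p-value. The median log2 fold change of the 30 members, 0.15 in the main fit, ranged from -0.60 (without golden replicate 1) to 0.66 (without greenish grey replicate 1), and the ratio of hemoglobin shares from 0.667 to 6.03. Of 13 members followed through 7 other settings, 10 of 91 values changed sign, 9 of them in limma at values near 0. They were -0.078, -0.097 and, with the block, -0.078 for LOC113055590, -0.011, -0.029 and -0.011 for LOC113055581, and -0.070, -0.072 and -0.070 for alas1, which was also negative, at -0.034, without TMM. When single libraries were left out, log2 fold changes ranged from -0.52 to 3.05 (LOC113082666), -0.66 to 2.85 (LOC113082649), -0.96 to 3.74 (LOC113046850), -0.52 to 3.03 (LOC113107212), -0.67 to 0.81 (alas1), -0.39 to 0.85 (LOC113055590), -0.37 to 0.80 (LOC113055581) and -1.45 to 0.14 (LOC113053833). LOC113074004, LOC113083552, LOC113067568 and LOC113067865 were negative in every fit. The median of all genes was 0.031 with TMM, -0.093 without it and -0.10 or -0.14 in limma. Single limma values lay on both sides of the main ones, as 0.94 against 0.41 for LOC113082666 and -2.16 against -1.34 for LOC113074004, and the cause was not tested. Among the members, the block changed no other call, and its counts for the marker lists stand beside those without it.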

Other observations

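The ratio of the main alpha to the main beta gene was slightly higher in each golden library than in any greenish grey library. The FPKM of LOC113082666 was 1.43, 1.43 and 1.29 times that of LOC113082649 in golden libraries 1, 2 and 3. In greenish grey libraries it was 1.28, 1.25 and 1.22 times. The golden ratios were thus all above the greenish grey ones, the nearest by little (1.29 against 1.28). Of the other shares and ratios computed here, only the share of slow and cardiac muscle markers was also without overlap. That share was 0.0396% to 0.694% in golden and 0.871% to 2.41% in greenish grey libraries. Of all tested genes, 10.1% were without overlap in scaled counts. The ratio of the chromosome 3 genes was 1.16, 1.10 and 0.977 in golden and 1.08, 0.966 and 0.823 in greenish grey libraries, higher in golden skin in each pair but overlapping. Both ratios were noticed in the data and were not tested.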
